A study of Arabidopsis thaliana with 9 samples.

Results

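The 9 genes described here are 6 respiratory burst oxidase homologues (RBOHA to RBOHF) and the 3 catalases (CAT1 to CAT3) of Arabidopsis thaliana, taken by locus from a count table of 37336 loci. The name RBOHE for AT1G19230 came with that list, since the reference annotation gives this locus no symbol. All 9 passed the filter on low counts, as did 21092 loci in all. Whole Col-0 wild-type seedlings, 3 days old at transfer from plates, spent 7 days in 3 ml of liquid MS medium (22 °C, long days of 16 h light). The medium was then renewed with 0.1% DMSO (mock, 3 libraries) or with 10 µM abscisic acid (ABA, the hormone of drought and seed dormancy, 3 libraries), and tissue was taken after 3 h. Another treatment, 10 µM of a compound labelled iCB, was not analysed here. The labels describe the replicates as independent biological ones, and give a DMSO content for mock only.

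RBOH proteins are NADPH oxidases of the plasma membrane. They pass electrons from NADPH in the cytosol to oxygen outside the cell, and the superoxide formed there is turned into hydrogen peroxide, a signal in stomatal closure, defence and root hair growth. Catalases are haem enzymes of the peroxisome that split hydrogen peroxide into water and oxygen, and so work at the other end of its life. In guard cells ABA is known to act partly through RBOHD and RBOHF, the latter a target of the ABA-activated kinase OST1 (SNRK2.6).

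Library depth ran from 21585450 to 22722904 counts, and replicates differed from each other by more than counting error (chi-square over degrees of freedom from 6.78 to 15.2). Leaf mesophyll markers were abundant, at a summed 22996 to 25165 CPM (counts per 1000000 counts, scaled by trimmed means of M values, TMM) in mock and 22520 to 26406 CPM in ABA, and 0 of 5 were called at an adjusted p below 0.05 in edgeR's quasi-likelihood test; at an unadjusted p below 0.05 the number was also 0, and DESeq2 called 0. With library totals as the only scaling 3 of these 5 were called lower. Root markers summed to 3843 to 4851 CPM in mock and 3296 to 3638 CPM in ABA. Of 7, 5 fell, beside 29.4% of all loci called lower, among them NRT1.1, PHO1 and SCR at log2 fold changes of -1.42, -0.98 and -0.50. DESeq2 called 4 lower, beside 23.4% of loci, and library totals 6, beside 44.8%. PYK10, the most abundant of the 7, and CASP1 were not called, at -0.20 and -0.15 (edgeR adjusted p = 0.156 and 0.451). In whole seedlings fewer cells of a type and less RNA per cell cannot be told apart.

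The make-up of both families differed between mock and ABA. Among the oxidases RBOHB and RBOHD fell and RBOHE and RBOHF rose; among the catalases CAT1 and CAT2 rose. RBOHA, RBOHC and CAT3 did not pass the test. Thus 6 of the 9 genes were called (66.7%), against 60.4% of all tested loci. The 4 rises stand beside 31.0% of loci called higher, and the 2 falls beside 29.4% called lower. The groups did not overlap for 7 of the 9, against 67.9% of all loci. With edgeR and TMM the share of members called was therefore close to that of the whole table. With library totals 4 rose and 4 fell, beside 66.1% of loci called, with 21.2% higher and 44.8% lower. Upper-quartile factors gave the same 4 and 4, beside 65.0% called, with 21.9% higher and 43.1% lower. DESeq2 gave 4 and 3, beside 48.8% of 23978 loci called, with 25.4% higher and 23.4% lower. In each of these alternatives the share of the 9 members called lay further above that of the table.

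**Figure D1:**
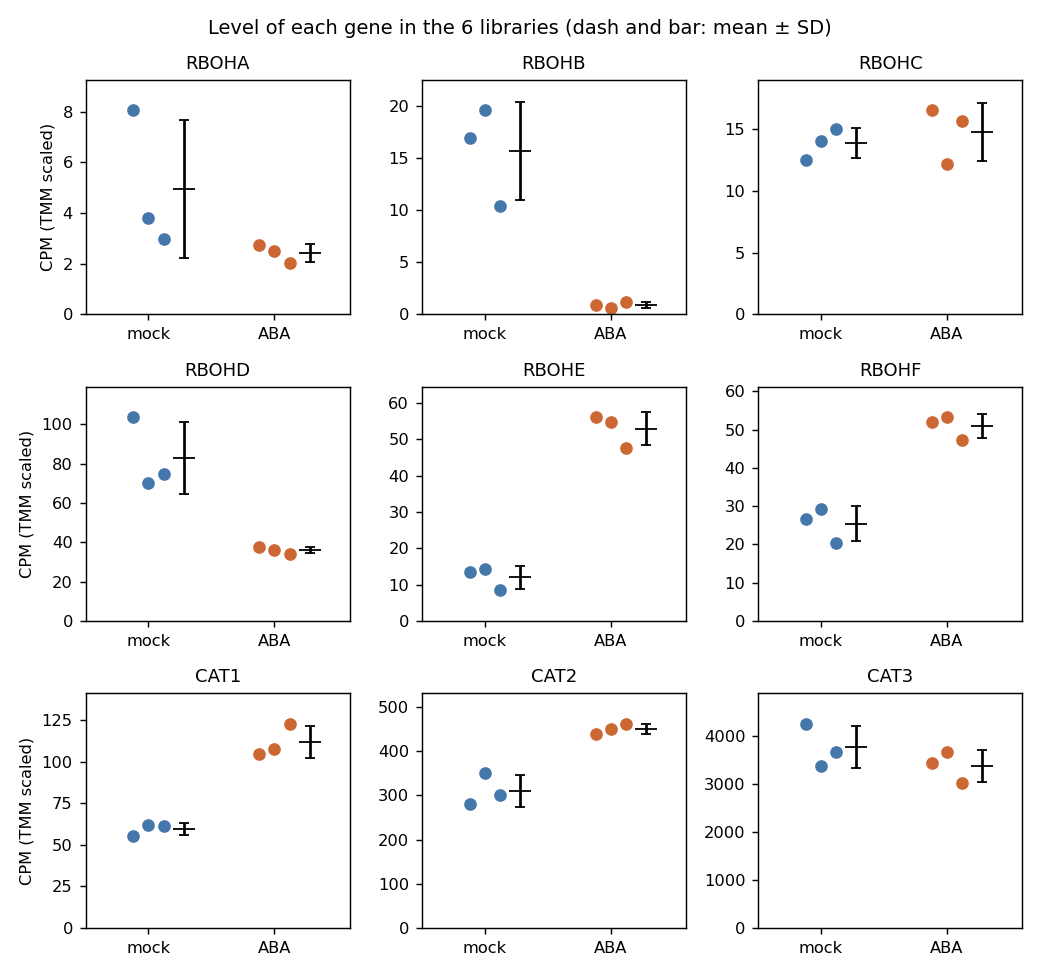
Level of each gene in CPM after TMM scaling (vertical axes start at 0 and differ between panels), with points for the 3 mock and 3 ABA libraries and a dash and bar for mean ± SD. RBOHB, RBOHD, RBOHE, RBOHF, CAT1 and CAT2 separate the groups widely, while the points of RBOHC and CAT3 overlap.

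RBOHB (AT1G09090), known for a part in seed after-ripening and germination, had the widest change of the 9. Its level was 17.0, 19.6 and 10.5 CPM in the mock libraries and 0.859, 0.636 and 1.18 CPM in the ABA libraries. The 3 ABA libraries all lay far below the lowest mock library. The log2 fold change, ABA minus mock, was -4.12 ± 0.33 (SE), 17.4-fold lower, with an edgeR adjusted p of 3.57e-05. The ABA levels rest on 18, 13 and 25 counts.

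RBOHD (AT5G47910, chromosome 5, 19397041 to 19402061, plus strand), the main oxidase of the immune burst and a partner in stomatal closure, stood at 103.6, 70.1 and 74.5 CPM in mock and at 37.6, 36.4 and 34.2 CPM in ABA. Mock replicate 1 was the highest library, and the ABA libraries lay close together. The log2 fold change was -1.198 ± 0.15, 2.29-fold lower (edgeR adjusted p = 3.52e-04). RBOHA (AT5G07390) stood at 8.06, 3.79 and 2.99 CPM in mock and at 2.72, 2.50 and 2.04 CPM in ABA. Its groups did not overlap either, but mock replicate 1 stood well above the other libraries, and the log2 fold change of -1.03 ± 0.39 did not pass (edgeR adjusted p = 0.0557). RBOHA passed in DESeq2 (adjusted p = 0.0127), with library totals or upper-quartile factors and without mock replicate 3, whereas without mock replicate 1 its value was -0.49 (edgeR adjusted p = 0.0736).

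RBOHE (AT1G19230), known from programmed cell death of the anther tapetum, rose most among the oxidases. It went from 13.4, 14.2 and 8.45 CPM in mock to 56.1, 54.8 and 47.7 CPM in ABA. Every ABA library was more than 3-fold above the highest mock library. The log2 fold change was 2.14 ± 0.19, 4.398-fold, with an edgeR adjusted p of 9.34e-05. RBOHF (AT1G64060, chromosome 1, 23769774 to 23776984, plus strand), which acts with RBOHD in guard cells and defence, went from 26.7, 29.2 and 20.3 CPM to 52.0, 53.2 and 47.3 CPM. It rose by 1.00 ± 0.13 (2.00-fold, edgeR adjusted p = 2.44e-04), again with no overlap. In these whole seedlings RBOHD and RBOHF thus passed in opposite directions, and guard cells were not measured apart.

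RBOHC (RHD2, AT5G51060, chromosome 5, 20757199 to 20762461, minus strand), the oxidase that root hair growth requires, stood at 12.5, 14.1 and 14.97 CPM in mock and at 16.5, 12.1 and 15.7 CPM in ABA. The groups overlapped, and the log2 fold change of 0.09 ± 0.13 had a 95% interval from -0.19 to 0.38 (edgeR adjusted p = 0.547). With library totals its value was -0.13 and with upper-quartile factors -0.11, so no direction is given. Without ABA replicate 1 it was -0.013, and leaving out any other library did not lead to a call either. The other root hair markers, 6 genes that include COW1 and EXPA7, summed to 61.9 to 111.8 CPM in mock and 92.9 to 100.5 CPM in ABA. By edgeR and DESeq2 0 of these 6 were called; at an unadjusted p below 0.05 there were 2, RSL4 at -0.57 ± 0.22 and ADF8 at -0.43 ± 0.18, picked after their values were seen. With library totals, and also with upper-quartile factors, 2 of the 6 were called lower.

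**Figure D2:**
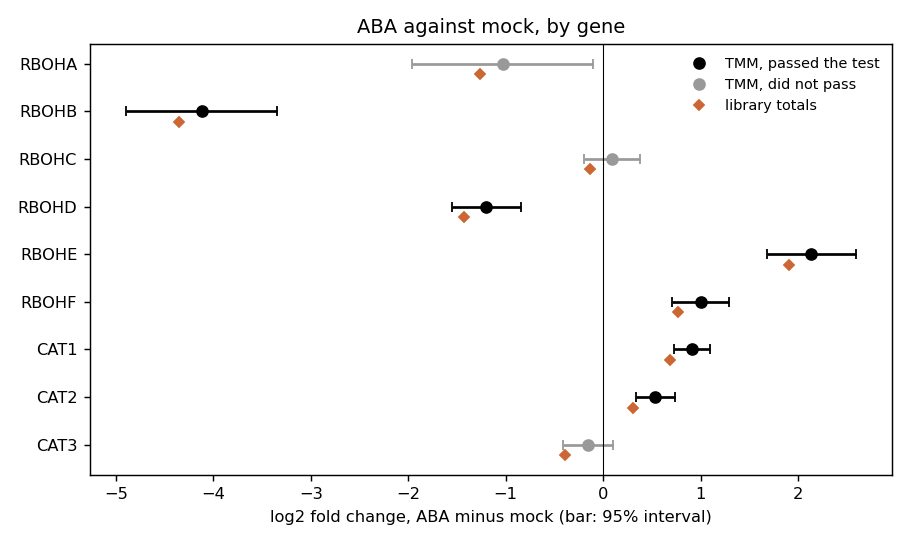
Log2 fold change of each gene, ABA minus mock, with its 95% interval under TMM scaling (circles, black where the test was passed) and the value with library totals (diamonds). RBOHB lies at -4.12 and RBOHE at 2.14; library totals move every gene down by about the same amount and turn the sign of RBOHC alone among the 9.

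The upstream sequences below are shown because RBOHE rose most among the oxidases and because the tandem catalases CAT1 and CAT3 differed in their calls. They end at the base before the annotated gene start and stop at a neighbouring gene, from the RefSeq annotation of TAIR10.1. Capitals mark ACGTG, the core of the ABA response element, TTGAC, the core bound by WRKY factors, and AAAATATCT, the evening element of clock-controlled genes, on either strand.
RBOHE, chr1:6643692-6643941, plus strand: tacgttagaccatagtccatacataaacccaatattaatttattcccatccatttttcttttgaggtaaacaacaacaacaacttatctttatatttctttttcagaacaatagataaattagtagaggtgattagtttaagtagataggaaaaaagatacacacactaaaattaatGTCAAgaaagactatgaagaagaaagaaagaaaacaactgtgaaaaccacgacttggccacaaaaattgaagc
CAT1, chr1:7146541-7146635, plus strand: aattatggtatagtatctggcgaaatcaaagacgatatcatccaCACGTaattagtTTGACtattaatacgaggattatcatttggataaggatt
CAT3, chr1:7142722-7142971, plus strand: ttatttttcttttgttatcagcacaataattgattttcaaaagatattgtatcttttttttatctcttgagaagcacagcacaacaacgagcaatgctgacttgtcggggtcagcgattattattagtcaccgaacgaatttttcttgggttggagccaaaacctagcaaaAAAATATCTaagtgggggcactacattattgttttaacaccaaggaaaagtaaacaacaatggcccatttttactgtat

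For the counts of matches, upstream windows of 250 bases were searched for 7 of the genes, RBOHC to RBOHF and the catalases. Unlike the sequences printed above, these windows and those of all protein-coding genes were not cut at a neighbouring gene. The matches before CAT1, at 51 and 39 bases upstream, lie within the 95 bases printed. ACGTG on either strand occurred before 2 of the 7 (RBOHC and CAT1), against 22.9% of the windows of 27443 protein-coding genes. RBOHE, the oxidase with the widest rise, has no ACGTG there. TTGAC occurred before 3 of the 7 (RBOHD, RBOHE and CAT1), against 44.9% of all windows. AAAATATCT occurred before CAT3 only among the 7, against 2.4% of all windows. The G-box CACGTG, which contains ACGTG, was in 6.5% of all windows and before 0 of the 7. A match describes letters and not a bound site.

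CAT1 and CAT3 lie in tandem on the same strand of chromosome 1, with 95 bases between the annotated end of CAT3 and the start of CAT1. CAT1 (AT1G20630), a catalase known in Arabidopsis to respond to ABA, stood at 55.1, 61.9 and 61.3 CPM in mock and at 104.9, 107.9 and 122.8 CPM in ABA. All ABA libraries lay above all mock libraries. It rose by 0.91 ± 0.08 on the log2 scale, 1.88-fold (edgeR adjusted p = 1.64e-05). Its upstream neighbour CAT3 (AT1G20620), the clock-controlled catalase that is also tied to senescence, stood at 4262, 3391 and 3682 CPM in mock and at 3446, 3677 and 3030 CPM in ABA. The groups overlapped, and the log2 fold change of -0.16 ± 0.11 did not pass (95% interval -0.41 to 0.10, edgeR adjusted p = 0.248). With library totals CAT3 was called lower at -0.39 (edgeR adjusted p = 0.0104), and with upper-quartile factors at -0.37.

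CAT2 (AT4G35090, chromosome 4, 16700312 to 16703504, minus strand), the leaf catalase that removes hydrogen peroxide of photorespiration, stood at 280.2, 350.5 and 302.0 CPM in mock and at 439.3, 450.0 and 462.0 CPM in ABA. The ABA libraries were closely grouped above the mock range. It rose by 0.53 ± 0.09, 1.45-fold (edgeR adjusted p = 7.55e-04), and by 0.31 with library totals, where it still passed (edgeR adjusted p = 0.0146).

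The shares of each message within its family do not depend on how libraries are scaled. Counts were divided by exonic length and set to 100% within each library. RBOHD made up 55.2%, 44.5% and 54.9% of RBOHA to RBOHF in mock and 22.4%, 22.6% and 22.9% in ABA. RBOHE went from 8.07% ± 1.55 to 35.9% ± 1.25 (SD, n = 3) and RBOHF from 14.3% ± 2.07 to 28.8% ± 0.98. RBOHB went from 13.0% ± 3.25 to 0.756% ± 0.27. RBOHA held 4.90%, 2.74% and 2.51% in mock and 1.85%, 1.77% and 1.55% in ABA. The groups did not overlap for these 5 shares, and each had an exact two-sided permutation p of 0.1, the smallest that 3 against 3 allows. RBOHC held 9.72% ± 2.38 in mock and 10.2% ± 1.69 in ABA (exact permutation p = 0.8).

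**Figure D3:**
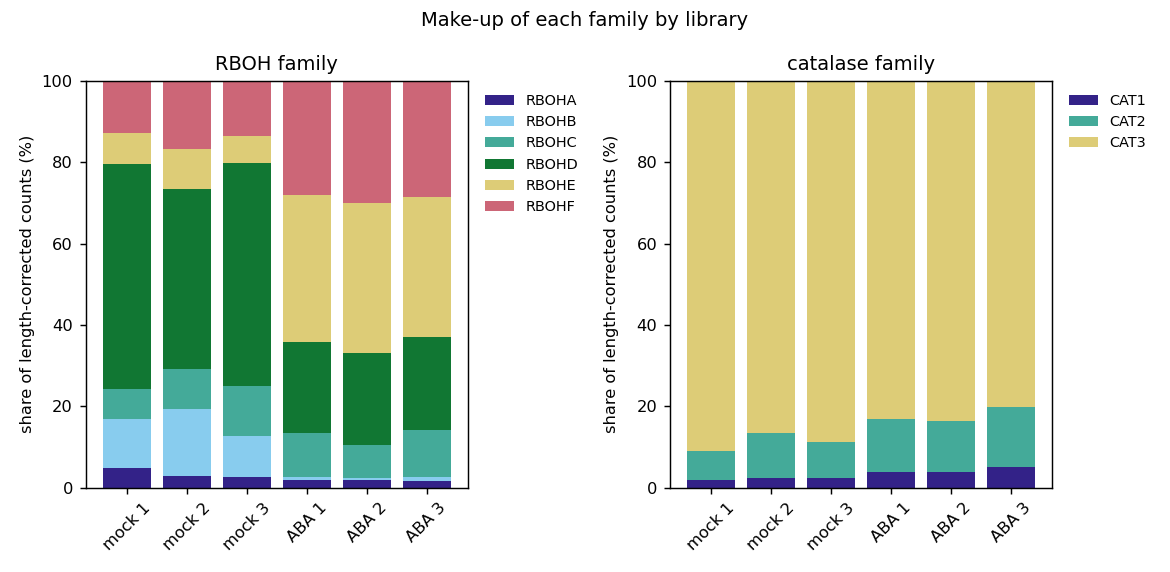
Share of each gene in the length-corrected counts of its family, in percent, as stacked bars for the 6 libraries. RBOHD is the widest band of the oxidases in mock and RBOHE in ABA, while CAT3 fills over 80% of the catalase bar in all 6.

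The summed level of the 6 oxidases was 52.1, 43.8 and 37.7 CPM per kb of exon in mock and 46.5, 44.6 and 41.5 CPM per kb in ABA, a ratio of 0.993 of the means (exact permutation p = 1). The ABA libraries lay within the mock range under TMM, the only scaling used for this sum. Library totals moved the log2 fold changes of all loci by -0.23 (median), so the ratio depends on the scaling. The sum also leaves out AT4G25090 and AT4G11230, family loci that fell. Within the catalases CAT1 went from 2.15% ± 0.32 to 4.18% ± 0.66 (SD, n = 3), CAT2 from 9.06% ± 1.83 to 13.5% ± 1.28 and CAT3 from 88.8% ± 2.13 to 82.3% ± 1.95, each with no overlap and an exact permutation p of 0.1. The summed catalase level was 1255 ± 117.5 CPM per kb in mock and 1213 ± 90.6 in ABA (exact permutation p = 0.6), and its difference of -42.5 turned to 22.5 without mock replicate 1 and to 5.34 without ABA replicate 3. With library totals the difference was -238.6 CPM per kb (exact permutation p = 0.1).

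Per kb of exon, the order of the genes in mock was CAT3 (mean 1116 CPM per kb), CAT2 (112), CAT1 (26.7), RBOHD (23.0), RBOHF (6.36), RBOHB (5.81), RBOHC (4.21), RBOHE (3.61) and RBOHA (1.57). The libraries of CAT1 and RBOHD overlapped in this order, as did those of each neighbouring pair from RBOHF down to RBOHA. In ABA the order of the oxidases was RBOHE (15.9 CPM per kb), RBOHF (12.7), RBOHD (10.0), RBOHC (4.49), RBOHA (0.765) and RBOHB (0.331), and no neighbouring pair overlapped. Per kb, RBOHE thus moved from the fifth place among the 6 oxidases to the first, and RBOHB from the third to the last. In CPM without division by length, the ABA libraries of RBOHE (56.1, 54.8 and 47.7) and RBOHF (52.0, 53.2 and 47.3) overlapped. The gap between these genes in ABA thus depends on the exonic lengths used, 3332 bases for RBOHE and 3994 for RBOHF.

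**Figure D4:**
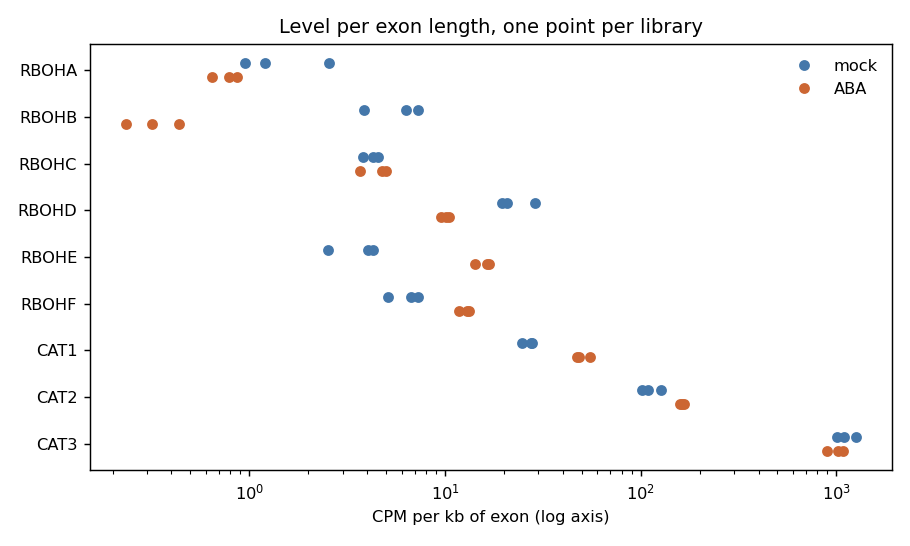
Level per exon length in CPM per kb on a log axis, with a point for each mock and ABA library. CAT3 stands near 1000 CPM per kb in both groups, and RBOHB in ABA is the lowest, at a mean of 0.331.

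Coding sequences were 61.3% to 68.9% identical between pairs of the 6 oxidases, and 80.3% between CAT1 and CAT2, 76.7% between CAT1 and CAT3 and 76.2% between CAT2 and CAT3. No stretch of 50 bases in the exons of any of the 9 occurred elsewhere in the genome. The exons of 4 genes overlap those of a gene on the other strand, by 169 bases for RBOHA, 59 for RBOHB, 133 for RBOHE and 95 for CAT2. The library kit keeps strand, but the strand setting of the counting is not given, so reads in these stretches may belong to either gene. The partner of RBOHB (AT1G09100) stood at 35.8 ± 2.74 CPM in mock and 32.9 ± 4.36 in ABA and that of RBOHE (AT1G19240) at 9.83 ± 0.45 and 8.14 ± 0.32 CPM (SD, n = 3). The partner of CAT2 (AT4G35080) stood at 38.6 ± 2.66 and 44.5 ± 1.70 CPM and that of RBOHA (AT5G07380) at 0.614 ± 0.25 and 0.816 ± 0.04 CPM.

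Further loci of the oxidase family were listed beside these. RBOHJ, an oxidase of pollen tubes, had no count in the 6 libraries, which allows up to 0.0223 CPM (3 counts over all 6; counting error only), and its partner there, RBOHH, had 1 count. Of 5 pollen markers 3 (VGD1, ANX2 and PRK2) also had none. AT4G25090 and AT4G11230, which the reference names only as riboflavin synthase-like like the RBOHE locus, both fell. AT4G25090 stood at 14.96, 15.5 and 11.3 CPM in mock and at 4.34, 4.70 and 4.55 CPM in ABA, and AT4G11230 went from 5.48 ± 1.86 to 1.202 ± 0.21 CPM (SD, n = 3). Their edgeR adjusted p was 1.37e-05 and 1.86e-04. The falls of RBOHB, RBOHD and these loci stand beside 5 of 7 root markers called lower, PYK10 and CASP1 not being called. They also stand beside 0 of 6 root hair markers called and RBOHC, which was not called. The part of tissue make-up in these falls was not tested.

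Genes known to act on the oxidases moved in both directions. Of 17 regulators 10 rose and 6 fell, beside 31.0% of all loci called higher and 29.4% lower. The median log2 fold change was 0.35, against -0.01 over all loci, and with library totals 8 rose and 6 fell. SNRK2.6, the ABA-activated kinase of RBOHF, rose by 2.17 ± 0.09, SCN1, which restrains RBOHC in root hairs, by 0.79 ± 0.07 and the small GTPase gene ROP2 by 0.70 ± 0.07. BIK1, the immune kinase that phosphorylates RBOHD, fell by 0.88 ± 0.13 and CBL1, a calcium sensor that works with CIPK26 on RBOHF, fell by 1.23 ± 0.12. On the same list CBL9 rose by 0.63 ± 0.14 (edgeR adjusted p = 0.00463). CIPK26 itself was not called, at 0.19 ± 0.07 (edgeR adjusted p = 0.0516). CBL9 and the value of CIPK26 were added after their values were seen. The receptor-like kinase gene CRK2 fell by 0.54 ± 0.14, the GTPase gene ROP6 fell by 0.60 ± 0.09 and CPK4 fell by 0.35 ± 0.09. CPK6 and CPK11 of the same list rose by 0.24 ± 0.06 and 0.35 ± 0.08 (edgeR adjusted p = 0.00862 and 0.00402). CIPK11 rose by 2.57 ± 0.19 (edgeR adjusted p = 3.51e-05). CPK6, CPK11 and CIPK11 were also named after their values were seen. CPK5, a calcium-dependent kinase of RBOHD, stood at -0.19 ± 0.06, a call lost in DESeq2 (adjusted p = 0.0693) and without mock replicate 1 or 3 or ABA replicate 2 or 3 (edgeR adjusted p from 0.0726 to 0.0975).

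Of 4 catalase partners 3 rose (median 0.43), beside 31.0% of all loci called higher; with library totals 2 rose. NCA1, a chaperone that catalase activity requires, rose by 0.77 ± 0.07, LSD1, a cell death regulator that binds catalases, by 0.55 ± 0.08, and PEX5, the import receptor of peroxisomes, by 0.32 ± 0.07. PEX5 was no longer called with library totals (edgeR adjusted p = 0.246) or upper-quartile factors (0.154). Of the perception and signalling genes of hydrogen peroxide 2 of 2 tested fell, beside 29.4% of all loci called lower. HPCA1, listed with them, had no matching name in the reference and was left out. GHR1, a receptor-like kinase of guard cell peroxide signalling, fell by 1.02 ± 0.09. OXI1, a kinase induced by hydrogen peroxide, fell by 1.496 ± 0.40, a call lost without ABA replicate 2 or 3 (edgeR adjusted p = 0.0654 and 0.065).

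Other enzymes that form or remove hydrogen peroxide were listed as background to the catalases. Over all lists of related genes 36 of 73 tested genes rose and 17 fell, but with library totals 24 rose and 29 fell. The counts of these lists stand beside 31.0% of all loci called higher and 29.4% lower, or 21.2% and 44.8% with library totals. Of 10 peroxisomal oxidases 6 rose and 1 fell (median 0.41; 4 and 3 with library totals), where 60.4% of all loci were called. The acyl-CoA oxidase genes ACX2, ACX1 and ACX5, whose enzymes release hydrogen peroxide during fatty acid breakdown, rose by 3.06 ± 0.07, 2.58 ± 0.07 and 0.83 ± 0.08, and GOX2, a glycolate oxidase of photorespiration, fell by 0.49 ± 0.12. Of 8 ascorbate peroxidases 5 rose and 1 fell (median 0.31; 2 and 3 with library totals). APX2 went from 4, 2 and 6 counts in the mock libraries to 190, 194 and 219 counts in the ABA libraries, TAPX of the thylakoid rose by 0.48 ± 0.07, and APX3 of the peroxisome fell by 0.22 ± 0.06. APX6 rose by 0.38 ± 0.09 but lost its call under library totals and under upper-quartile scaling (edgeR adjusted p = 0.158 and 0.121).

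Of 10 reductases of the ascorbate-glutathione cycle 6 rose and 3 fell (median 0.26; 4 and 4 with library totals). GR1, a glutathione reductase, and MDAR4, a reductase of the peroxisome membrane, rose by 1.26 ± 0.07 and 1.04 ± 0.06, while MDAR3, MDAR6 and DHAR2 fell, at -3.10 ± 0.21, -0.35 ± 0.07 and -0.65 ± 0.16. Of 7 glutathione peroxidase-like genes 4 rose and 1 fell (median 0.41; 3 and 2 with library totals), with GPX2, GPX5 and GPX6 up by 1.93 ± 0.07, 0.41 ± 0.07 and 0.56 ± 0.12 and GPX3 at -0.27 ± 0.08. Of 7 superoxide dismutases 1 rose and 3 fell (median -0.08; 0 and 6 with library totals). CSD2 and FSD3 of the chloroplast stood at -1.37 ± 0.10 and -0.76 ± 0.08, and CSD3 at 0.35 ± 0.08, a call lost with library totals and upper-quartile factors (edgeR adjusted p = 0.223 and 0.159). Of 5 hallmark genes of general oxidative stress 1 rose, AT1G05340, by 5.24 ± 0.15 (1 higher and 2 lower with library totals, and likewise with upper-quartile factors). Another of them, AT2G43510, stood at 61.7, 28.3 and 16.6 CPM in mock and 17.7, 17.0 and 16.5 CPM in ABA, and AT1G19020 at 36.5, 19.1 and 14.6 CPM in mock and 21.8, 18.4 and 17.2 CPM in ABA. Both, named after their values were seen, were highest in mock replicate 1, as were RBOHA, RBOHD and OXI1; without that library the log2 fold changes were -0.49 for RBOHA, -1.004 for RBOHD and -1.07 for OXI1. Of 9 peroxiredoxins listed, only 4 had a matching name in the reference and 3 were tested. Of these 3, 0 were called by edgeR and DESeq2, with 0 at an unadjusted p below 0.05, and 1 was called lower with library totals and with upper-quartile factors.

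**Figure D5:**
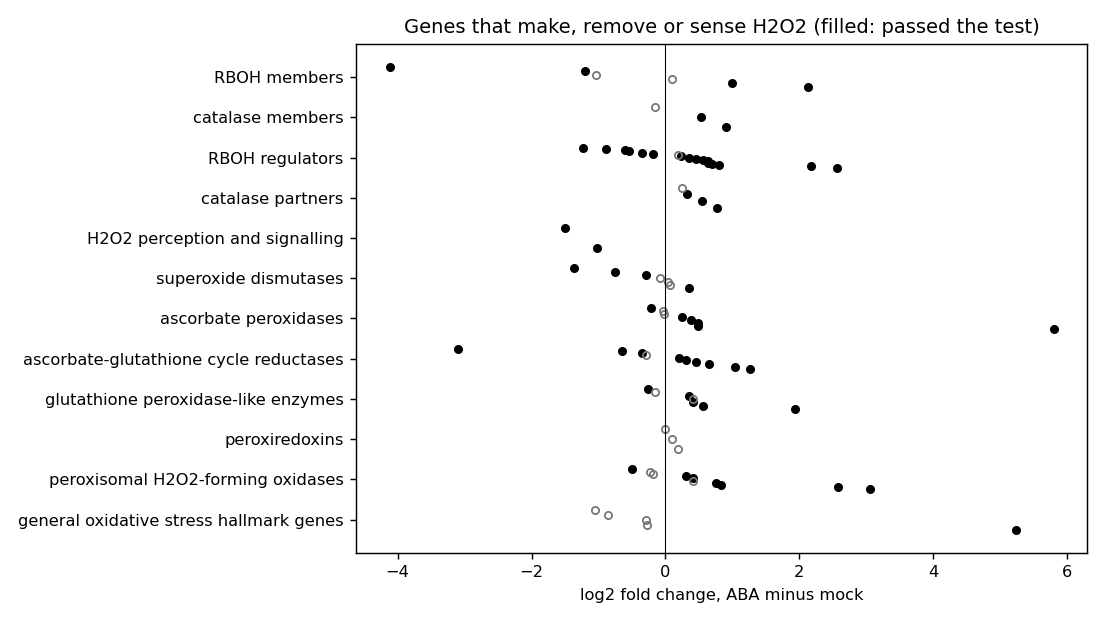
Log2 fold change, ABA minus mock, of RBOHA to RBOHF, CAT1 to CAT3 and each tested gene of the related lists (filled circles passed the test, open ones did not). AT4G25090 and AT4G11230 are not drawn. The oxidases and 6 of the lists hold filled points on both sides of 0, while the filled catalases both lie above it; ACX2 lies at 3.06 and MDAR3 at -3.10.

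Guard cell markers, which bear on RBOHD and RBOHF, also moved in both directions. Of 5 tested, 1 rose and 3 fell, beside 31.0% of all loci called higher and 29.4% lower. DESeq2 called 1 higher and 2 lower, beside 25.4% and 23.4% of loci. KAT1 stood at 1.41 ± 0.11, MYB60 at -1.92 ± 0.21 and FAMA at -0.65 ± 0.11. Their summed level was 34.9 to 36.8 CPM in mock and 38.2 to 44.2 CPM in ABA. Within it KAT1, the marker called higher, went from a mean of 9.50 to 25.3 CPM. The 3 called lower went from means of 15.6 to 9.93 (FAMA), 6.39 to 1.68 (MYB60) and 2.40 to 1.55 CPM (HT1). The part of these markers in the results for RBOHD and RBOHF was not tested.

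The loci with patterns most like RBOHD and CAT3, the oxidase and catalase with the highest mean per exon length over all 6 libraries together, were found by Pearson's r of log2 CPM over the 6 libraries, as a description; these libraries form 2 groups. For RBOHD they were ALDH2C4 (r = 0.999), AT4G19370 (r = 0.999) and MAA3 (r = 0.998), and 1695 loci reached at least 0.95. For CAT3 they were NIP1;2 (r = 0.974), AT5G39110 (r = 0.967) and OPT3 (r = 0.965), with 7 loci at or above 0.95.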

How the data were processed

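The authors deposited raw counts, whole numbers of reads per locus for 37336 loci, with no normalization. The submitters' processing notes name the TAIR10 build, STAR, cutadapt, FastQC and DESeq2. Versions, the program that counted reads, whether it used strand, how it handled reads with several matches and which annotation it used are not given. The table holds 9 columns of counts. The names of 3 of them could not be matched to any label, and these 3 were not used. The iCB samples were therefore not analysed here, and no planned iCB comparison was made.

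The test on the deposited counts was run with edgeR 4.0.16 under R 4.3.3. The filter filterByExpr kept 21092 loci, libraries were scaled by the trimmed mean of M values (TMM), and the quasi-likelihood test, with robust dispersions, took ABA minus mock. P-values were adjusted by Benjamini-Hochberg over all tested loci, and a gene was called below 0.05. Intervals (95%) use the test's own degrees of freedom. Shares and summed levels were compared by an exact two-sided permutation test over libraries. With 3 against 3 its smallest p is 0.1. Alternatives used DESeq2 1.42.0, limma-voom (limma 3.58.1), other scalings and filters, the replicate number as a block, and each library left out. The steps were also run on simulated counts in which few loci were changed. That setting cannot test the choice of scaling.

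Exonic lengths, overlaps and upstream windows came from the RefSeq annotation and genome of TAIR10.1, by its own coordinates. The exonic length of a gene covers the exons of all its annotated transcripts, with shared bases counted once. The count table holds no coordinates. The upstream windows of 2 of the genes are not reported here. Of the other list members, 108 had a matching name there, and the 9 without one were left out of the list counts. AT4G25090 and AT4G11230, 2 of these 9, are given by locus. From each other list the text names up to 3 called genes with the smallest adjusted p and called genes that moved against the majority. The members and lists were chosen with earlier results of these data known.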

Additional observations from a re-analysis of the deposited data

How the results depend on the processing

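RBOHB, RBOHD, RBOHE, RBOHF, CAT1 and CAT2 kept their direction and stayed past the threshold under all alternatives run, among them DESeq2, limma-voom, 3 other scalings and the loss of any single library. Library totals moved the log2 fold changes of all loci by -0.23 (median) and upper-quartile factors by -0.21. With library totals 9459 loci were called lower and 4475 higher, against 6205 and 6537 with TMM. With both of these scalings 1 catalase, CAT3, was called lower, against 0 with TMM. RBOHC changed sign under library totals (-0.13), under upper-quartile scaling (-0.11) and without ABA replicate 1 (-0.013), and was called under none of the alternatives run. RBOHA passed in DESeq2, under both of these scalings, under the replicate block and without mock replicate 3, and had no value under the stricter filter, which removed it. Without single libraries its log2 fold change ran from -1.31 to -0.49, and that of RBOHC from -0.013 to 0.21.

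The difference in the CAT1 share was 2.03 percentage points, or 1.41 from raw counts. That in the RBOHD share was -28.9 points, or -23.4 with 4 further loci in the denominator. The summed catalase difference of -42.5 CPM per kb was -238.6 with library totals and -220.4 with upper-quartile factors, and ran from -92.0 to 22.5 without single libraries (22.5 without mock replicate 1, 5.34 without ABA replicate 3). Without length correction, which is a different quantity, it was -202.2 CPM.

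The labels state no pairing of same-numbered libraries, and the numbers were not taken as pairs. The deviations of same-numbered libraries correlated at 0.07, 0.08 and 0.20 across genes, and every library correlated best with its own number. With the replicate block 12815 loci were called against 12742, and 5 oxidases against 4, RBOHA being added at -0.95. Levels below about 1 CPM, as for RBOHB in ABA, rest on few counts.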
